A study of Homo sapiens with 4 samples.

Results

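The genes of cholesterol and fatty acid synthesis were followed in human proximal tubular cells (HPTCs) stimulated with IL-1β and Empa. The set has 32 genes. They are the enzymes that build cholesterol from acetyl-CoA, the proteins that control the sterol regulatory element binding proteins (SREBPs), the sterol carrier STARD4 and a group of fatty acid and lipid enzymes. A gene was included where the array design gives its symbol to a probe, and all 32 symbols were found, on 42 probes, among 25992 gene names in all. Of the 32 genes, 25 were read by 1 probe and 7 by several. All 32 were well above background on all 4 arrays, and none of their spots was saturated.

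The study asked how Empa (empagliflozin, an inhibitor of the sodium-glucose cotransporter SGLT2) acts on genes induced by the cytokine IL-1β. The 4 arrays used here are 2 labelled HK-2 and 2 labelled RPTEC/TERT1, and every one of them carries RNA of cells that received both agents together, IL-1β at 10 ng/mL and Empa at 500 nM, for 24 h after 24 h without serum and supplements. HK-2 is a human proximal tubule line immortalised with papillomavirus genes, and RPTEC/TERT1 is a human renal proximal tubule line immortalised with telomerase. The lines were grown in different media, and both were grown to confluence before starvation. Arrays of unstimulated cells and of cells given only IL-1β were not used here, and no value below is an effect of IL-1β or of Empa. The comparison the labels allow is that of the lines, with 2 arrays each. In such bulk RNA, fewer cells of a type and less RNA per cell cannot be told apart.

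Cells make cholesterol by a chain of enzymes that runs from acetyl-CoA through mevalonate, isoprenoids and squalene to lanosterol and then to cholesterol. The chain is controlled as a unit. When sterol in the endoplasmic reticulum is low, SCAP carries the SREBP precursors, encoded by SREBF1 and SREBF2, to the Golgi, where they are cut to release a transcription factor that raises the genes of the chain. INSIG1 and INSIG2 hold SCAP back when sterol is ample, and INSIG1 is itself a gene that SREBPs raise. Fatty acid enzymes such as FASN, SCD and the FADS desaturases answer mostly to SREBF1 products and to other lipid sensors. The proximal tubule takes up much of its fuel as fatty acids.

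A level is the log2 of the processed signal of a gene over the 75th percentile of its array, so 0 is the brightness of that percentile and a difference of 1 is a 2-fold difference. Levels were compared between arrays for 1 gene at a time, since the brightness of different probes is not on a common scale. The technical error of a level, from the error that the scanner software gives for each signal, lay between 0.0457 and 0.188 for the members. It gave an error of 0.20 for most differences between 2 arrays.

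The arrays did not group by their labels, and this bears on every value below. Over 16469 genes, well above background on at least 2 arrays, the correlation of HK-2 replicate 1 with RPTEC/TERT1 replicate 2 was r = 0.983. That of HK-2 replicate 2 with RPTEC/TERT1 replicate 1 was r = 0.975. The correlation between the arrays of a label was 0.847 for HK-2 and 0.833 for RPTEC/TERT1. All 4 correlations are across genes, which share their arrays and are not independent replicates. Arrays of replicate 1 shared a scan date, as did those of replicate 2, and r within a date was 0.844 and 0.856. Labels were kept as deposited, and each library is named by its label throughout.

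Between the libraries labelled HK-2 and RPTEC/TERT1, no gene of the set differed. In limma, 0 of the 31 members tested and 0 of all 16469 genes passed an adjusted p of 0.05, which is 0% of genes. All 31 members had an adjusted p of 1. At an unadjusted p under 0.05 there were 23 genes and 0 members. The lowest unadjusted p in limma among members, 0.327, was that of EBP, which stood at 3.63 in HK-2 and 4.12 in RPTEC/TERT1. The median standard error of a member's difference was 0.72 and the largest difference, that of MVD, was 0.50 lower in HK-2. These differences rest on single arrays. With 1 array left out at a time, that of MVD ran from -1.52 (without HK-2 replicate 1) to 0.51 (without HK-2 replicate 2), and that of FADS2 from -3.05 to 2.26 for the same arrays, with no call. With 2 arrays a label this does not show that the lines express the pathway alike.

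The absence of calls came with a wide spread inside each label. INSIG1 had a mean of 3.71 ± 1.69 (SD, n = 2) in HK-2 and 3.85 ± 2.44 (SD, n = 2) in RPTEC/TERT1. FADS2 had 1.47 ± 3.76 (SD, n = 2) and 1.86 ± 3.74 (SD, n = 2). For both genes the labels' means were close and the SDs many times the technical error. The median SD within a label over the members was 0.85. The values of single arrays are therefore given first below, always in the order HK-2 replicate 1, HK-2 replicate 2, RPTEC/TERT1 replicate 1, RPTEC/TERT1 replicate 2.

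**Figure D1:**
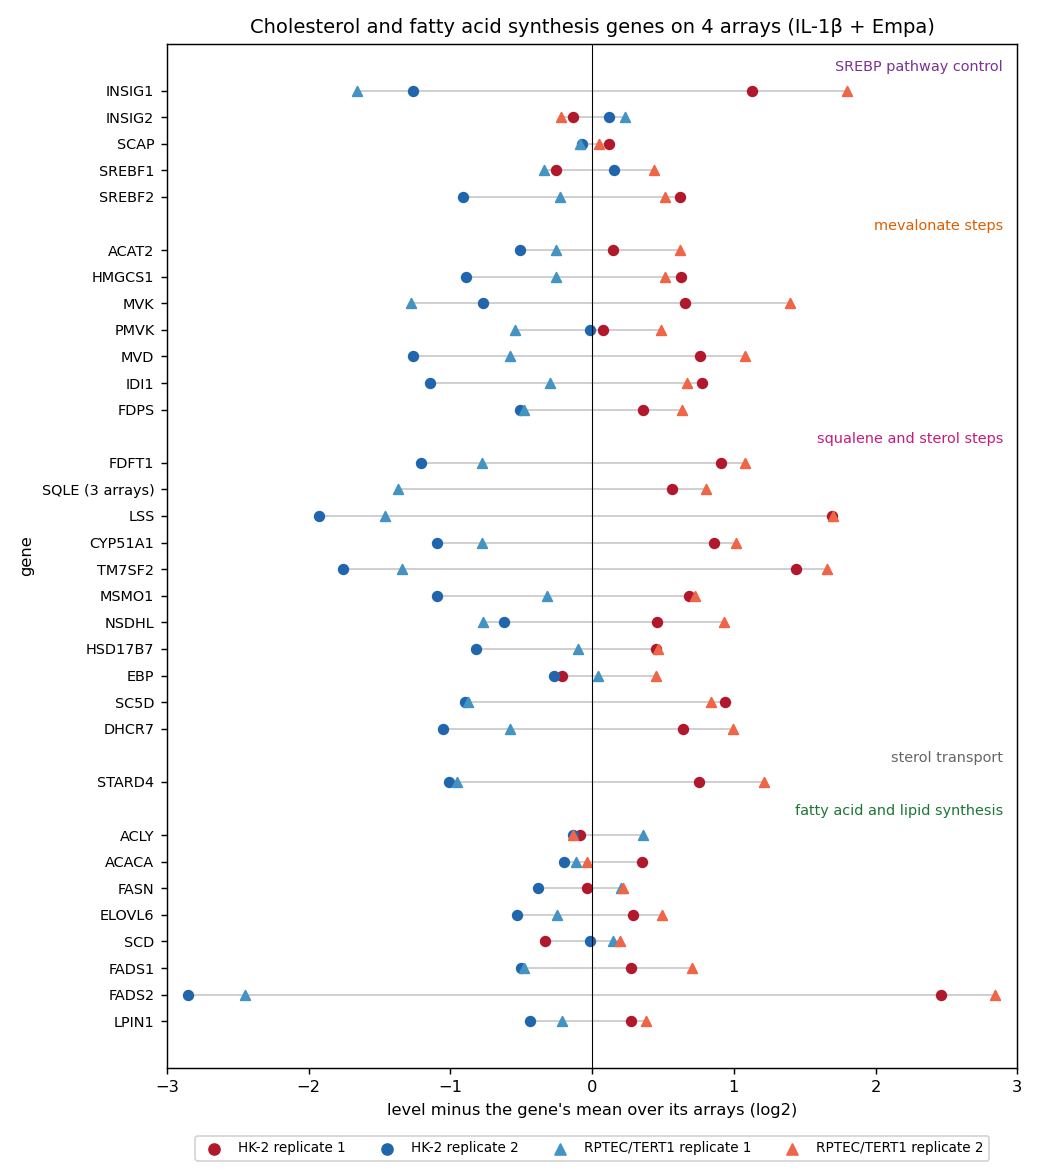
Level of each of the 32 genes on each array, minus the mean of that gene over its arrays (log2, x axis), grouped by role (y axis). Circles are HK-2 and triangles RPTEC/TERT1. For 25 of the 31 genes with a value on all arrays, HK-2 replicate 1 and RPTEC/TERT1 replicate 2 are the 2 highest points, and FADS2 has the widest span, 5.70.

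Most members shared 1 order of the arrays. In 25 of 31, HK-2 replicate 1 and RPTEC/TERT1 replicate 2 were both above the other arrays, against 38.8% of all genes tested. The opposite order, with these arrays both below the others, was found in 1 member, INSIG2, against 33.2% of all genes. The labels did not overlap in 3 members, EBP, FASN and SCD, against 7.17% of all genes. Arrays of replicate 1 and replicate 2 did not overlap in 2 members, ACLY and SREBF1, against 20.6% of all genes. The 4 arrays spanned over 1 log2 unit in 22 of 31 members and in 52.9% of all genes. The counts of orders have no size limit, for members or for all genes, and some orders rest on gaps within the technical error. In ACACA and SCAP, 2 of the 25, RPTEC/TERT1 replicate 2 was only 0.08 and 0.13 above RPTEC/TERT1 replicate 1.

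The regulators of the pathway split. INSIG1, the sterol-dependent anchor of SCAP, was read at 4.91, 2.52, 2.12 and 5.58 by a probe at chr7:155101843-155101902 of GRCh37. HK-2 replicate 1 was 5.24-fold above HK-2 replicate 2, and RPTEC/TERT1 replicate 2 was 11.0-fold above RPTEC/TERT1 replicate 1. The bright arrays carried different labels and different replicate numbers. INSIG2, which has the same anchoring role, read -0.29, -0.04, 0.07 and -0.38, a span of 0.45, with the order of the arrays turned round. These are means of 2 probes. For A_24_P944458, HK-2 replicate 1 minus 2 was -0.36 and RPTEC/TERT1 replicate 2 minus 1 was -0.86. For A_33_P3321342 the same differences were -0.14 and -0.04, so the size of the INSIG2 differences depends on the probe. SCAP, the escort protein, was the flattest of the 31 at 0.76, 0.57, 0.56 and 0.69. Its span of 0.20 equals the technical error of 1 difference.

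SREBF2, whose product mainly drives cholesterol genes, read 2.31, 0.79, 1.47 and 2.21. It was 2.88-fold higher on HK-2 replicate 1 than on HK-2 replicate 2 and 1.67-fold higher on RPTEC/TERT1 replicate 2 than on RPTEC/TERT1 replicate 1. SREBF1, whose product mainly drives fatty acid genes, read 0.68, 1.09, 0.59 and 1.37 as the mean of 2 probes that did not move together within RPTEC/TERT1. The probe A_23_P129786 gave 3.11, 3.48, 3.44 and 3.10. The probe A_33_P3222139 of the same transcript gave -1.75, -1.31, -2.26 and -0.37. HK-2 replicate 1 minus 2 was -0.37 and -0.44, the same direction by both probes. RPTEC/TERT1 replicate 2 minus 1 was -0.34 by the first, which spanned little, and 1.89 by the other. Within RPTEC/TERT1 the direction of SREBF1 thus depends on the probe.

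Beginning with acetyl-CoA, the mevalonate steps were all brighter on HK-2 replicate 1 than on HK-2 replicate 2, 7 of 7. All 7 were also brighter on RPTEC/TERT1 replicate 2 than on RPTEC/TERT1 replicate 1. Of all 16469 genes tested, 8665 and 8760 were brighter in the same comparisons. The differences of the mevalonate steps had medians of 1.42 and 1.03. ACAT2, the thiolase that joins acetyl-CoA units, read 3.75, 3.10, 3.35 and 4.23. HMGCS1, the synthase that makes HMG-CoA, read 2.63, 1.11, 1.75 and 2.52. Both kept the order with HK-2 replicate 2 lowest, and neither passed 1 log2 unit in both labels.

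MVK, mevalonate kinase, read 3.19, 1.77, 1.25 and 3.93. It was 2.68-fold apart within HK-2 and 6.39-fold within RPTEC/TERT1. PMVK, the next kinase, read 1.16, 1.07, 0.54 and 1.57. PMVK was the only mevalonate enzyme whose HK-2 arrays lay within the technical error of each other. MVD, the decarboxylase that yields isopentenyl diphosphate, read 0.97, -1.06, -0.37 and 1.29. IDI1, which isomerises that product, read 3.43, 1.51, 2.36 and 3.32. FDPS, which links the isoprenoid units into farnesyl diphosphate, read 5.46, 4.59, 4.62 and 5.73. In MVD and IDI1 the lowest array was HK-2 replicate 2. In FDPS that array and RPTEC/TERT1 replicate 1, at 4.59 and 4.62, lay within the technical error of each other. In MVD, IDI1 and FDPS the arrays of neither label were close together.

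Among the member roles of several genes, the squalene and sterol steps had the largest median differences, 1.81 within HK-2 and 1.71 within RPTEC/TERT1 over 10 genes. FDFT1, squalene synthase and the first enzyme committed to sterols, read 4.39, 2.27, 2.70 and 4.56. SQLE, squalene epoxidase, read 4.59, 2.66 and 4.83 on the arrays other than HK-2 replicate 2, where its spot was marked as an outlier. With that spot kept it read 2.82 there, close to its value on RPTEC/TERT1 replicate 1. SQLE was left out of the fit and of all counts over 31 members.

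LSS, which closes squalene epoxide into lanosterol, read 1.96, -1.65, -1.19 and 1.97, a 12.3-fold difference within HK-2 and an 8.95-fold difference within RPTEC/TERT1. Its probes differed by 3.56 and 3.67 within HK-2 and by 2.91 and 3.41 within RPTEC/TERT1. CYP51A1, the lanosterol demethylase, read 4.08, 2.12, 2.44 and 4.23. TM7SF2, a sterol reductase that acts on its product, read -0.42, -3.62, -3.20 and -0.21. These 3 genes had nearly the same level on the 2 bright arrays, 0.01 apart for LSS, 0.16 for CYP51A1 and 0.22 for TM7SF2.

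TM7SF2 was spotted 10 times on each array, which gives the spread of spots within an array. Technical spread between arrays is not part of it. Its spots lay between -0.62 and -0.20 on HK-2 replicate 1 (9 spots, 1 marked as an outlier), between -3.76 and -3.48 on HK-2 replicate 2, between -3.67 and -2.84 on RPTEC/TERT1 replicate 1 and between -0.34 and -0.03 on RPTEC/TERT1 replicate 2. No spot of a bright array overlapped a spot of a dim one. MSMO1, the sterol methyl oxidase, was also spotted 10 times, at 0.76 ± 0.13, -1.02 ± 0.13, -0.24 ± 0.10 and 0.80 ± 0.05 (SD over 10 spots). Here RPTEC/TERT1 replicate 1 stood 0.77 above HK-2 replicate 2, more than the spot spread of either. The bright arrays did not differ beyond their spot spread.

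NSDHL, which removes the carboxyl group left by MSMO1, read 3.90, 2.82, 2.67 and 4.37. HSD17B7, the ketoreductase that follows, read -1.72, -2.99, -2.27 and -1.70 as the mean of 4 probes. In 3 of the 4, RPTEC/TERT1 replicate 2 was above RPTEC/TERT1 replicate 1, by 1.35, 1.51 and 1.47. The fourth, A_33_P3276364, designed on another transcript, was well above background on 2 arrays. It read -3.24 on HK-2 replicate 1 and -3.19 on RPTEC/TERT1 replicate 1, and it was at or near the floor of -5.37 on the others, which gives no exact difference there. That probe is part of the mean. EBP, the sterol isomerase, was the exception of the group at 3.66, 3.61, 3.92 and 4.33, with both RPTEC/TERT1 arrays above both HK-2 arrays. SC5D, the sterol desaturase, read -1.94, -3.78, -3.75 and -2.04. DHCR7, which reduces the last double bond of dehydrocholesterol, read 4.71, 3.02, 3.49 and 5.06. STARD4, a carrier that moves cholesterol between membranes, read -0.24, -2.00, -1.95 and 0.21. In SC5D and STARD4 the dim arrays lay within 0.05 of each other.

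**Figure D2:**
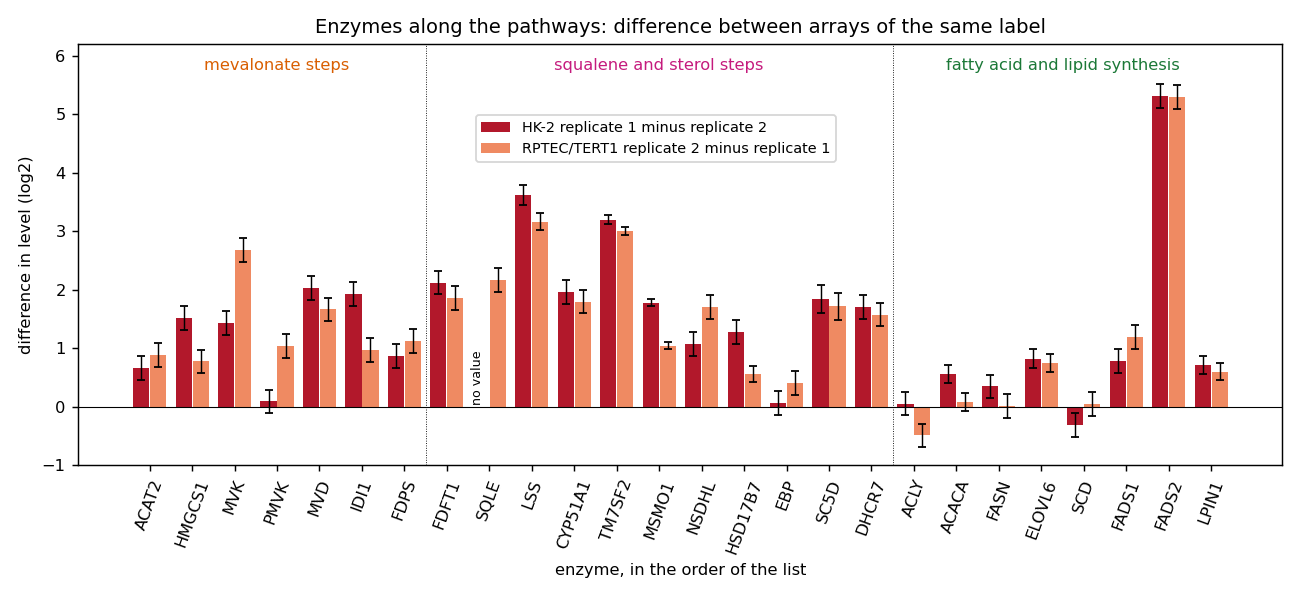
Difference in level between the arrays of a label (log2, y axis) for the enzymes in the order of the list (x axis), for HK-2 (dark bars, replicate 1 minus 2) and RPTEC/TERT1 (light bars, replicate 2 minus 1). Error bars are the technical error of the difference and hold no biological spread. The sterol steps reach 3.62 at LSS and 3.20 at TM7SF2, EBP is at 0.06 and 0.41, and FADS2 stands apart at 5.31 and 5.29.

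The fatty acid and lipid enzymes varied less, apart from FADS2. FADS2, the desaturase that starts the making of long polyunsaturated fatty acids, read 4.13, -1.19, -0.78 and 4.51 with a probe at chr11:61634754-61634813 of GRCh37. That is 39.7-fold within HK-2 and 39.2-fold within RPTEC/TERT1, and it was the widest span of all members. FADS1, the next desaturase, read 3.69, 2.91, 2.94 and 4.12. The genes are neighbours on chromosome 11, and in the RefSeq table of GRCh38.p14 the span of FADS1 (61799627 to 61817003) covers the start of FADS2 at 61816203. FADS1 moved 1.72-fold and 2.27-fold in the same comparisons, so the neighbours differed in size and not in direction.

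ELOVL6, the elongase that extends palmitate, read -1.27, -2.09, -1.80 and -1.06, just over the span of 1 log2 unit. Below that span lay LPIN1, a phosphatidate phosphatase, at 0.30, -0.41, -0.18 and 0.41. Its probes disagreed within RPTEC/TERT1, where A_32_P52609 fell by 0.30 and A_33_P3356075 rose by 1.49, and the remaining probe was above background on no array. FASN, fatty acid synthase, read 1.65, 1.30, 1.89 and 1.90. SCD, the stearoyl-CoA desaturase and a well-known SREBF1 target, read 0.10, 0.41, 0.57 and 0.62. In both FASN and SCD the HK-2 arrays were below the RPTEC/TERT1 arrays. For SCD the nearest arrays of the labels, at 0.41 and 0.57, lay within the technical error of 0.20 of each other. ACACA, acetyl-CoA carboxylase, read -0.12, -0.67, -0.59 and -0.51. ACLY, which supplies cytosolic acetyl-CoA from citrate, read 1.47, 1.42, 1.92 and 1.42. None of these 4 spanned more than 0.60, and SCD was lowest on HK-2 replicate 1, an array on which most sterol genes were bright.

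**Figure D3:**
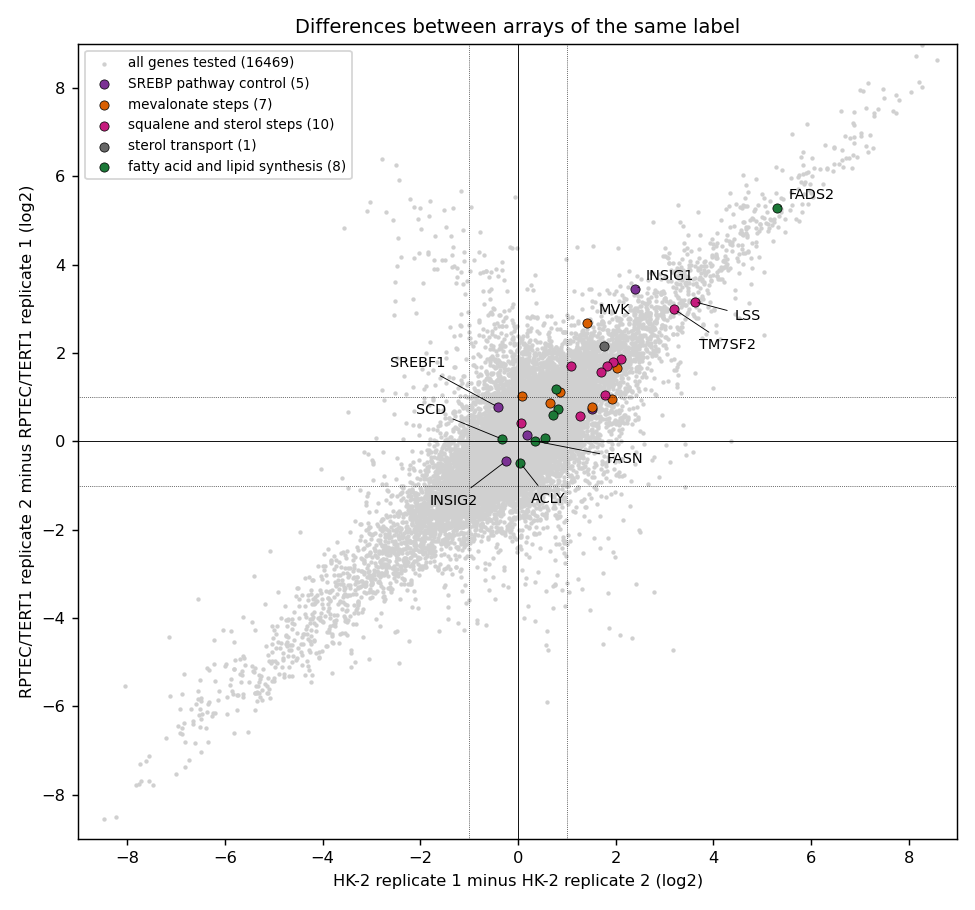
HK-2 replicate 1 minus HK-2 replicate 2 (log2, x axis) against RPTEC/TERT1 replicate 2 minus RPTEC/TERT1 replicate 1 (log2, y axis). Grey points are the 16469 genes tested, of which 6 lie outside the axes, coloured points are the 31 members by role, and dotted lines mark 1 log2 unit. Members lie along the diagonal that the grey points also follow, with FADS2, LSS, TM7SF2 and INSIG1 farthest out and INSIG2, ACLY, SCD and SREBF1 below 0 on 1 or both axes.

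Counted together, the members leaned 1 way in each label. The median difference within HK-2 was 1.27, against 0.06 over all genes. HK-2 replicate 1 was above HK-2 replicate 2 in 28 of 31, against 8665 of all 16469 genes. It was above by over 1 log2 unit in 17 members, against 17.7% of all genes, and below by as much in 0, against 16.4%. RPTEC/TERT1 replicate 2 was above RPTEC/TERT1 replicate 1 in 29 of 31, against 8760 of all 16469 genes. The median difference within RPTEC/TERT1 was 1.03, against 0.09. There 16 members passed 1 log2 unit upward, against 22.1% of all genes, and 0 downward, against 18.4%. Both differences passed 1 log2 unit upward in 13 members, against 12.3% of all genes, and downward in 0, against 11.4%. The 13 were INSIG1, MVK, MVD, FDFT1, LSS, CYP51A1, TM7SF2, MSMO1, NSDHL, SC5D, DHCR7, STARD4 and FADS2. Each of these is a difference of 1 array from 1 array and has no replicate check. With normexp background correction the count was 6, and it was 10 when 6 spots with a bright background on HK-2 replicate 1 were left out of that correction.

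The difference within HK-2 and that within RPTEC/TERT1, which share no array, correlated across the 31 members at r = 0.888, and at r = 0.825 without FADS2. Over all 16469 genes r was 0.810. These are descriptions across genes of the same 4 arrays, and the members' value lies near that of all genes.

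Set side by side within a replicate number, and so within a scan date, the lines gave opposite answers. In replicate 1 the members were higher in the library labelled HK-2, with a median of 0.84 (all genes 0.12). There 14 passed 1 log2 unit upward, against 19.6% of all genes, and 0 downward, against 16.4%. In replicate 2 they were lower, with a median of -1.41 (all genes -0.08). Here 0 passed upward, against 16.0%, and 21 downward, against 17.8%. The difference was above 0 in replicate 1 and below 0 in replicate 2 in 26 of 31 members, against 46.6% of all genes. It turned the other way in 1 member, INSIG2, against 38.5% of all genes. By over 1 log2 unit on each side, 14 members turned downward, the 13 genes above and IDI1, against 14.6% of all genes, and 0 turned upward, against 12.8%. A turn of sign was thus common over the whole array, and the members leaned to 1 of its directions. FADS2 went from 4.91 to -5.70, LSS from 3.15 to -3.63 and INSIG1 from 2.79 to -3.06.

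Arrays that differed in both label and replicate number were close. HK-2 replicate 1 minus RPTEC/TERT1 replicate 2 had a median of -0.22 over the members, and 0 members differed by over 1 log2 unit, against 4.90% of all genes. HK-2 replicate 2 minus RPTEC/TERT1 replicate 1 had a median of -0.28, and 0 members did, against 6.78%. The widest of these differences were -0.74, for MVK in the first pair, and -0.84, for IDI1 in the second. Both are larger than the technical error of 0.20. With normexp correction 14 members differed by over 1 log2 unit in the first pair, and 0 did without the 6 spots of bright background.

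**Figure D4:**
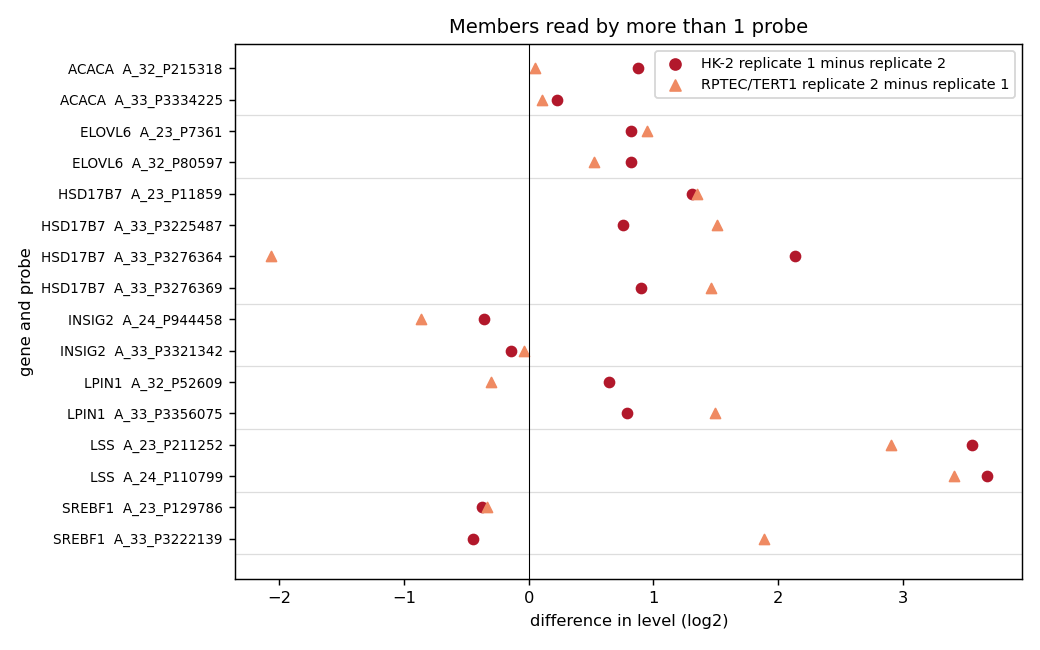
Difference in level between the arrays of a label (log2, x axis) for each probe of the 7 members that have several probes (y axis), without the LPIN1 probe that was above background on no array. Circles are HK-2 and triangles RPTEC/TERT1. The LSS probes lie together at 2.91 to 3.67, while SREBF1 and LPIN1 each have probes of opposite sign within RPTEC/TERT1. The HSD17B7 probe A_33_P3276364 is at or near the floor on 2 arrays, so its points carry no exact size.

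The promoter sequences of 6 members that moved far, INSIG1, MVK, LSS, TM7SF2, NSDHL and FADS2, and of INSIG2 and EBP, which spanned under 1 log2 unit, are shown, since the letters known to be used by SREBPs and their partner factors can be read in them. They are RefSeq sequences of GRCh38.p14, the 250 bases before the gene start, 5′ to 3′ on the gene's strand. Capitals mark every match to CACGTG (an E-box), to ATTGG or its reverse CCAAT (the CCAAT box, used by the partner NF-Y), and to the sterol element core TCACCCCAC or its shorter part CACCCCAC. INSIG1 is at chr7:155297628-155297877 (plus strand), MVK at chr12:109573544-109573793 (plus), LSS at chr21:46228775-46229024 (minus), TM7SF2 at chr11:65111622-65111871 (plus), NSDHL at chrX:152830813-152831062 (plus), FADS2 at chr11:61815953-61816202 (plus), INSIG2 at chr2:118088300-118088549 (plus) and EBP at chrX:48521558-48521807 (plus).
INSIG1: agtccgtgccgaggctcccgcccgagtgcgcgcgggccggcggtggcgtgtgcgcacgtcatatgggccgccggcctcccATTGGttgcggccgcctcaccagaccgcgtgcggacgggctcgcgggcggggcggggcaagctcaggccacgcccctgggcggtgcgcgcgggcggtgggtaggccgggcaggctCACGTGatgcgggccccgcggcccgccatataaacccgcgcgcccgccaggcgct
MVK: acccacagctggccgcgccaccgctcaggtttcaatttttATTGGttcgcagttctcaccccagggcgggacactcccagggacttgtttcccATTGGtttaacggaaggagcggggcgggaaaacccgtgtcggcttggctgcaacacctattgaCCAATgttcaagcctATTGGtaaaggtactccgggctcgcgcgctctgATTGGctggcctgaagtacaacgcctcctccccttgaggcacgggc
LSS: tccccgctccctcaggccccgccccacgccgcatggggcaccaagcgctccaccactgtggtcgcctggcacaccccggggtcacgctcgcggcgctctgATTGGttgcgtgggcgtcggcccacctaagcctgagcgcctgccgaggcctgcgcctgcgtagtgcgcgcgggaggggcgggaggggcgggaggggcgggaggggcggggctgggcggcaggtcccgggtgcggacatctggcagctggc
TM7SF2: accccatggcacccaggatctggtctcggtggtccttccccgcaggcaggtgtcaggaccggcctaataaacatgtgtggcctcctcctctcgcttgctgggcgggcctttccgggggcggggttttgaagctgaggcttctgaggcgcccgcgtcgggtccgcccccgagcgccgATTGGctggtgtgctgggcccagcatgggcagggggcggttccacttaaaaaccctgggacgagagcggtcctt
NSDHL: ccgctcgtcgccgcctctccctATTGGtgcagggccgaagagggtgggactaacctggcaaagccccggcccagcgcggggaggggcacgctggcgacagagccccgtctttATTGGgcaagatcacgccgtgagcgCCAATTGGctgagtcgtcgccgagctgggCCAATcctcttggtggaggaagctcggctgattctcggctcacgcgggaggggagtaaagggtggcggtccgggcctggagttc
FADS2: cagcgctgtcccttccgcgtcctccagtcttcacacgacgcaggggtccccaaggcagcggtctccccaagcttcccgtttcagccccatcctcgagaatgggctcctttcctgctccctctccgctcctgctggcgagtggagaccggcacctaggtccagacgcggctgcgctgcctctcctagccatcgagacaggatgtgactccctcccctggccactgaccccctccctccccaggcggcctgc
INSIG2: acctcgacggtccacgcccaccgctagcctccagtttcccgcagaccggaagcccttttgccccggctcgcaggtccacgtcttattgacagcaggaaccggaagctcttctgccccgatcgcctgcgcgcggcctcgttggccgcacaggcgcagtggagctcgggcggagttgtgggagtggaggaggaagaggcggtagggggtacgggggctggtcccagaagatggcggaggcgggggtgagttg
EBP: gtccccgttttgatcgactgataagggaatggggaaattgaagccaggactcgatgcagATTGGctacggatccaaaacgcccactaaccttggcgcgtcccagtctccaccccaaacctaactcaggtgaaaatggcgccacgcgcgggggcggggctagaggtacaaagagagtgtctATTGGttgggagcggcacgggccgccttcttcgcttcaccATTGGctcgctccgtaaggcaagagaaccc

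INSIG1, the most variable regulator, holds 1 CACGTG, 55 bases before its start, and 1 CCAAT box at 170. MVK and NSDHL each hold 5 CCAAT boxes, of which 2 in NSDHL overlap, and LSS and TM7SF2 hold 1 each. The window of INSIG2, which varied by 0.45, holds none of the motifs marked in capitals, and neither does that of FADS2, the widest mover, while EBP, which varied by 0.72, holds 3 CCAAT boxes. These windows were picked by the span of their genes, so they cannot show whether the letters go with the span. A window without them says only that they are not in this window.

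Of the members, 28 had a promoter in the table, with 40 windows. The CCAAT box, on either strand, was in 19 of these 28 genes and in 37.0% of all 27305 genes of the table. It was in 10 of the 12 matched genes that passed 1 log2 unit in both labels. The GC box GGGCGG or CCGCCC was in 27 of the 28 and in 46.2% of all genes. CACGTG was in 3 (INSIG1, SC5D and SCAP) and in 7.73% of all genes. TCACCCCAC and the shorter CACCCCAC, on either strand, were each in 1 member, SREBF2, and in 0.45% and 2.97% of all genes. A match of such short letters is a description and not a binding site, and genes with more windows have more chances of one.

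Genes beside the pathway were taken from 4 lists, and none passed the limma test between the lines (0 of 46 tested). Of 8 partners that cut, hold or degrade SREBP pathway proteins, none passed 1 log2 unit upward in both labels, against 12.3% of all genes. Without a size limit, HK-2 replicate 1 and RPTEC/TERT1 replicate 2 were both highest in 6 of the 8, against 38.8% of all genes. Both were lowest in 1, against 33.2%. The order of most members was thus not particular to them. PAQR3, which tethers SCAP to the Golgi, read -2.63, -1.41, -1.20 and -2.73, the reverse of the order of INSIG1. RNF139, a ubiquitin ligase of the endoplasmic reticulum, spanned 0.97. The list's median differences were 0.41 within HK-2 and 0.21 within RPTEC/TERT1, below those of the sterol enzymes.

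In the list of sterol handling and export, 10 of 12 genes were tested and none passed upward in both labels, against 12.3% of all genes. HK-2 replicate 1 and RPTEC/TERT1 replicate 2 were both highest in 6 of the 10, against 38.8% of all genes, and both lowest in 1, against 33.2%. ABCA1, the exporter that liver X receptors raise when sterol is ample, read -3.80, -2.08, -1.59 and -3.21. It was dim where INSIG1 and LSS were bright. NPC1, which releases cholesterol from lysosomes, read 1.15, -0.40, 1.36 and 0.54 and followed neither pattern. MYLIP, a ubiquitin ligase that liver X receptors raise, read -0.28, -0.88, -1.61 and 0.00, with the order of most members.

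The branch from farnesyl diphosphate to other isoprenoids had 8 of 9 genes tested, with medians of -0.10 within HK-2 and 0.08 within RPTEC/TERT1. HK-2 replicate 1 and RPTEC/TERT1 replicate 2 were both highest in 3 of the 8 and both lowest in 3, against 38.8% and 33.2% of all genes. GGPS1, which makes geranylgeranyl diphosphate, read -2.35, -3.14, -3.23 and -2.09, and PDSS1, of the coenzyme Q side chain, read -2.40, -1.19, -1.64 and -2.22, in the opposite order. COQ2 spanned 0.60. Of 20 fatty acid and glycerolipid partners tested, 2 passed upward in both labels and 3 downward, against 12.3% and 11.4% of all genes. DGAT2, which makes triglyceride, read -4.62, -1.95, -1.89 and -4.36. GPAM, the first acyltransferase of glycerolipids, read -3.26, -0.90, -0.94 and -3.41. ACSL1, which activates fatty acids, read 1.41, -1.03, -0.25 and 1.06. The list held genes of both orders, 9 of 20 with those arrays both highest and 7 with both lowest. Its medians were 0.03 and 0.04.

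**Figure D5:**
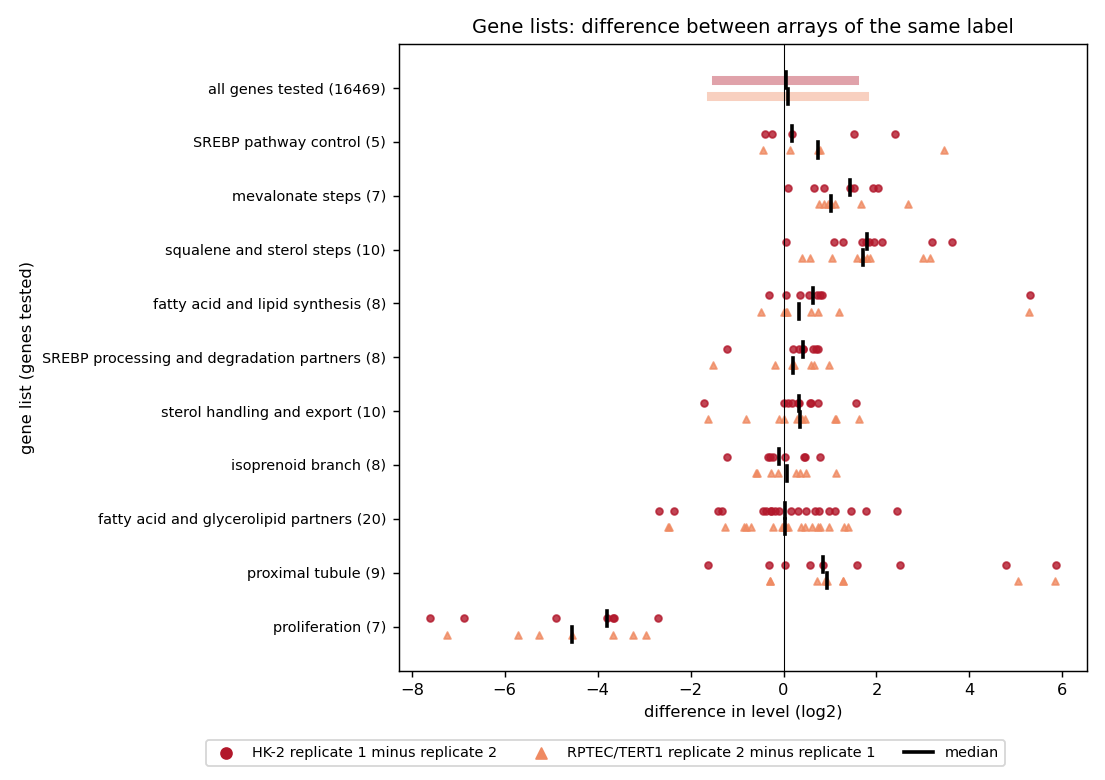
Difference in level between the arrays of a label (log2, x axis) for each gene tested in the role groups and lists (y axis), for HK-2 (circles) and RPTEC/TERT1 (triangles), with black lines at the medians. For all genes the bars run from the 10th to the 90th percentile. The squalene and sterol steps have medians of 1.81 and 1.71, the isoprenoid branch lies near 0, and the proliferation genes are all below 0.

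Other genes moved over the same arrays, and their part in the result was not tested. All 7 proliferation markers were lower on HK-2 replicate 1 than on HK-2 replicate 2. They were also lower on RPTEC/TERT1 replicate 2 than on RPTEC/TERT1 replicate 1. Of all 16469 genes tested, 7764 and 7650 were lower in the same comparisons. The summed level of the proliferation markers was 277%, 4895%, 5111% and 287% of the 75th percentile. TOP2A, a marker of dividing cells, read -5.36, 2.25, 2.29 and -4.96. Of 13 proximal tubule markers, 6 were above background on all arrays and 3, CUBN, SLC22A6 and HNF4A, on none. The summed level of the list was 3197%, 1030%, 1328% and 2846%. ANPEP, a brush border peptidase, read 0.49 on HK-2 replicate 1 and lay close to that, at 0.47, on RPTEC/TERT1 replicate 2. On the others ANPEP was at the floor of -5.37. PAX8, a renal epithelial factor, read 4.13, 1.61, 2.79 and 3.73. LRP2, the endocytic receptor megalin, went the other way at -3.34, -1.72, -2.77 and -3.06, as did GGT1, a brush border transferase, at -0.88, -0.56, -0.35 and -0.65. The list therefore did not move as 1, and its summed level weighs genes by the brightness of their probes.

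Markers of other cells were mostly dim. Of the defining markers WT1, SLC12A3, AQP2, VWF, KDR and PDGFRB, none was well above background on any array. SLC12A1, a cotransporter of the thick limb, read -0.51 on HK-2 replicate 1 with a similar -0.10 on RPTEC/TERT1 replicate 2, and it was at the floor elsewhere. DCN, a fibroblast proteoglycan, read -0.61 on HK-2 replicate 2 with a similar -0.87 on RPTEC/TERT1 replicate 1, and it was not well above background elsewhere. Over the lists, the summed level on the 4 arrays ranged from 17.1% to 58.3% for podocytes, from 21.9% to 115% for the thick limb, distal tubule and collecting duct, from 19.6% to 39.5% for endothelium, from 87.6% to 187% for leukocytes and from 7.86% to 72.4% for fibroblasts. Whether the members' order follows cell state, the culture or the identity of the libraries was not tested.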

How the data were processed

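RNA of HPTCs given 500 nM Empa together with 10 ng/mL of IL-1β was read on 4 one-colour arrays, grouped by the cell line in their labels, with the labels' replicate numbers. The study's methods describe biological duplicates. The members and gene lists were chosen with earlier results of these data known.

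The authors deposited spot intensities on a linear scale from Agilent Feature Extraction 9.5.3.1, whose headers place probes on GRCh37, with the background subtracted and no scaling between arrays. They also deposited log2 values in a table of the whole series, and how these were made is not given in the sources used. Their medians are 8.31, 7.04, 6.67 and 6.65, in the order of arrays used in the report, so whether they were scaled or centred is unknown. They run in the direction of the intensities and served as an alternative.

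Control and outlier spots were left out. The processed signal was divided by the array's 75th percentile (393 to 748 units), set to a floor of 0.0242 of it, which is the highest of the 4 arrays' lowest signals well above background, and taken to log2. Spots of a probe were averaged, then the probes of a gene with a signal well above background on 1 array or more. Of 25992 gene names, 16469 passed the filter (well above background on 2 arrays or more, a value on all 4) and were fitted with limma 3.58.1 in R 4.3.3 (lmFit and eBayes, HK-2 minus RPTEC/TERT1, Benjamini-Hochberg at 0.05). The number of arrays limits the precision. The fit was tested on simulated data with a spread far below 0.85, the members' median SD within a label. That test does not show what the fit can detect in these data.

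Genes given in full are the SREBP regulators and the members with a wide span or a difference over 1 log2 unit within both labels, with the flattest for contrast. For each list the 3 widest spans are named, except where a gene is not reported here. Promoter letters were searched in the 250 bases before each start of a RefSeq table (GRCh38.p14). All 32 symbols were in the RefSeq gene table, as were the transcripts of 39 of 42 probes, under the same symbol. The replicate numbers did not pair the arrays, since the deviations of same-numbered arrays from their label means correlated at -0.81. Alternatives were another scaling, quantile normalization, normexp correction with an offset of 50, the authors' log2 values, other filters and probe rules, each array left out and the replicate number as a block.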

Additional observations from a re-analysis of the deposited data

Results flagged for a closer look

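The direction of the difference between the lines turned with the replicate number. The median over the members of HK-2 minus RPTEC/TERT1 was 0.84 in replicate 1 and -1.41 in replicate 2. In 14 members, among them INSIG1, LSS, TM7SF2 and FADS2, the library labelled HK-2 was higher by over 1 log2 unit in replicate 1 and lower by over 1 log2 unit in replicate 2, a turn that 14.6% of all 16469 genes also made. Each value is 1 array against 1 array, and the difference between the replicates was not tested.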

How the results depend on the processing

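No gene was called between the lines under any alternative run, with 4 (normexp correction) to 241 (no filter on dim probes) genes at an unadjusted p under 0.05. With the replicate block, a fit with the replicate number as a term, limma called 0 genes and left 5 at an unadjusted p under 0.05. The crossed block, which was chosen after seeing the data, gave 0 calls and 183 such genes. With each array left out in turn, limma called 0 genes, the lone array of a label being assumed to vary like the others, and 12 to 94 genes had an unadjusted p under 0.05.

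Of the counts and medians over members, 192 recomputed values stayed within 1.5 times (counts) or within 0.85, the median SD within a label (medians), and 15 did not. Members whose replicate numbers do not overlap, 2 in the report, numbered 1 with median scaling, 1 with the brightest probe of each gene, 7 with normexp correction and 5 with the authors' log2 values. Normexp correction lowered the members past 1 log2 unit within HK-2 from 17 to 11 and those past it in both labels from 13 to 6. It raised those that differ between the bright arrays (HK-2 replicate 1, RPTEC/TERT1 replicate 2) from 0 to 14, and those whose labels do not overlap from 3 to 6. Within those limits it still moved the median within HK-2 from 1.27 to 0.64, that of replicate 1 from 0.84 to 0.19, that of the bright arrays from -0.22 to -0.89, and the members with both bright arrays highest from 25 to 17. Without 6 spots of bright background, an alternative chosen after seeing the data, these 4 counts were 16, 10, 0 and 3, replicate numbers did not overlap in 1 member, and 2 members had the reverse order, as with the brightest probe (2, against 1). With the authors' log2 values the median of HK-2 replicate 2 minus RPTEC/TERT1 replicate 2 was -0.50 (10 members past 1 log2 unit, against 21), with 1 and 3 members past it in the pairs that cross the labels. The cause of these shifts was not tested beyond the bright spots. Of single members, 449 values stayed within 1 SD of that member and 16 moved, with none called. These SDs are wide, so signs can turn inside them, and with each array left out the median difference of the members ran from -0.82 to 0.43.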
